A study of Rattus norvegicus with 6 samples.

Results

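The family of miR-34 and miR-449 is a small group of microRNAs (miRNAs) whose 5′ arms share 1 seed, the stretch near the 5′ end with which a miRNA pairs to its target mRNAs. Its members were taken from a small RNA sequencing experiment on rat lung by name, as every row of the count table called miR-34a, miR-34b, miR-34c, miR-449a or miR-449c, with either arm of the hairpin. The names gave 9 rows of the 693 in the table, of which 630 are named rat miRNAs. They comprised 5 arms from the 5′ side of a hairpin (5p) and 4 arms from its 3′ side (3p). Lung tissue was taken from male Sprague Dawley rats that were 7 to 8 weeks old. In the 3 ischemia reperfusion (IR) models the left lung hilum was closed for 45 min and then reopened, while the 3 sham models had the same surgery without closure. How long reperfusion lasted is not stated in the sources used here. Each sample gave 1 library from a part of the dissected lung tissue. Which lung or region that part came from is not stated in the sources used here. Cell types were not separated, so that fewer cells of a type and less RNA per cell cannot be told apart.

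The family is described here as miR-34a, linked to p53, and members known from ciliated cells. The division is one of description and does not mean that p53 has no part at the other loci. In mammals miR-34a is transcribed from a locus that the tumor suppressor p53 activates after DNA damage, and it represses cell cycle genes and promotes senescence or apoptosis. miR-34b and miR-34c come from another locus, and miR-449a and miR-449c from yet another. In the airway the loci of miR-34b, miR-34c and miR-449 are known for their activity in multiciliated cells, the cells that move mucus, and mice lacking them have short or missing airway cilia. The 5p arms can repress shared targets through the shared seed.

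The mature 5p sequences are shown because the seed defines the family and because near-identical members limit what a read can tell. They were taken from the RefSeq entries for the rat assembly GRCr8, in which all 9 rows were matched by name. Capitals mark the seed, bases 2 to 8 counted from the 5′ end.
rno-miR-34a-5p: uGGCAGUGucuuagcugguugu
rno-miR-34b-5p: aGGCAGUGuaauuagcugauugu
rno-miR-34c-5p: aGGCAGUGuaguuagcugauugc
rno-miR-449a-5p: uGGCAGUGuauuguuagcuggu
rno-miR-449c-5p: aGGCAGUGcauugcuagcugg
These 5 were the only names in the RefSeq table with this seed. miR-34b-5p and miR-34c-5p were identical at 21 of 23 bases and differed by A11G and U23C, with the base of miR-34b-5p written first and positions counted from the 5′ end. miR-449a-5p and miR-449c-5p were identical at 18 of 21 bases and differed by U1A, U9C and U14C, with the base of miR-449a-5p first. Bases were compared position by position from the 5′ end, with no gaps. How many mismatches a read could carry when it was assigned is not stated in the sources used here, so the low count of miR-34b-5p beside the high count of miR-34c-5p is uncertain to that extent.

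The 3p arms carry other seeds and hence belong to other target groups. They are shown because the 3p arms of miR-34b and miR-34c share a seed with each other, although only 17 of their 22 bases were identical.
rno-miR-34b-3p: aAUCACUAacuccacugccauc
rno-miR-34c-3p: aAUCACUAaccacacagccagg
rno-miR-34a-3p: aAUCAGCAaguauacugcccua
rno-miR-449a-3p: cAGCUAACaugcaacugcucuc

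The hairpins of miR-34b and miR-34c are shown because their 4 arms are compared with each other in the following results. In GRCr8 Mir34b lies at chr8:60306609-60306692 and Mir34c at chr8:60306091-60306167, both on the minus strand. Capitals mark the 5p and the 3p arm.
Mir34b: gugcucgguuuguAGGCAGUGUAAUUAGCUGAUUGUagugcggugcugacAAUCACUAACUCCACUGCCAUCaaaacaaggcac
Mir34c: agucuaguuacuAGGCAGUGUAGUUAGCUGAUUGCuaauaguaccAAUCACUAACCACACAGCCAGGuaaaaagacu
Both hairpins overlap Hoatz, a gene of cilia and flagella. Mir449a (chr2:46403910-46404000, plus strand) and Mir449c (chr2:46402375-46402473, plus strand) lie in a long noncoding RNA gene. The neighbouring coding genes are Ccno and Mcidas, 2 genes of the multiciliated cell program, on one side and Gpx8 on the other. Mir34a (chr5:165815952-165816053, plus strand) lies in another long noncoding RNA gene, between H6pd and Gpr157. The RefSeq promoter window of Hoatz that reaches into Mir34b is shown because it places the arm miR-34b-5p directly after a start site of that gene (chr8:60306638-60306937, minus strand). Another window of Hoatz (chr8:60306113-60306412, minus strand), not shown, likewise places miR-34c-5p after a start site, at bases 258 to 280. In the window shown, capitals mark miR-34b-5p in DNA letters at bases 259 to 281.
Hoatz: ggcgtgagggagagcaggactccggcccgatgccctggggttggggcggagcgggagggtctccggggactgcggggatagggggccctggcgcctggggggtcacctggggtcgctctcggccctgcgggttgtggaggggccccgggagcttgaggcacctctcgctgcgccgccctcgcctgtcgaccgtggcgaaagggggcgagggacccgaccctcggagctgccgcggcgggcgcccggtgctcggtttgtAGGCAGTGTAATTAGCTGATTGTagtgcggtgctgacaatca

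The libraries held 3775663 to 11248166 reads in IR models and 7459979 to 10718899 reads in sham models, counted over all listed miRNAs. Of the 9 members, 7 passed the filter on low counts and were tested, while miR-34a-3p and miR-449a-3p were not. Levels are given as counts per 1000000 reads after TMM scaling (normalized CPM). Among all 418 miRNAs tested, 44 (10.5%) differed between IR and sham models by edgeR's quasi-likelihood test at a Benjamini-Hochberg adjusted p under 0.05, of which 33 (7.89%) were higher and 11 (2.63%) lower in IR models. Samples of the same group are described in the paper as biological replicates. The table lists miRNAs only, so the mRNA markers of ciliated cells were not analysed here.

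None of the 7 tested members of the family was called, which is to be read against that background of 10.5%. At an unadjusted p, 0 of the 7 were under 0.05, as compared to 110 of the 418 tested miRNAs (26.3%). Limma-voom, limma-trend, DESeq2 and the likelihood ratio test of edgeR also called 0 of the 7. The ranges of the 2 groups overlapped for all 7, whereas 142 of the 418 (34%) had groups that did not overlap. The log2 fold change was positive for 3 members and negative for 4, with a median of -0.11 as compared to -0.0088 over all miRNAs tested.

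**Figure D1:**
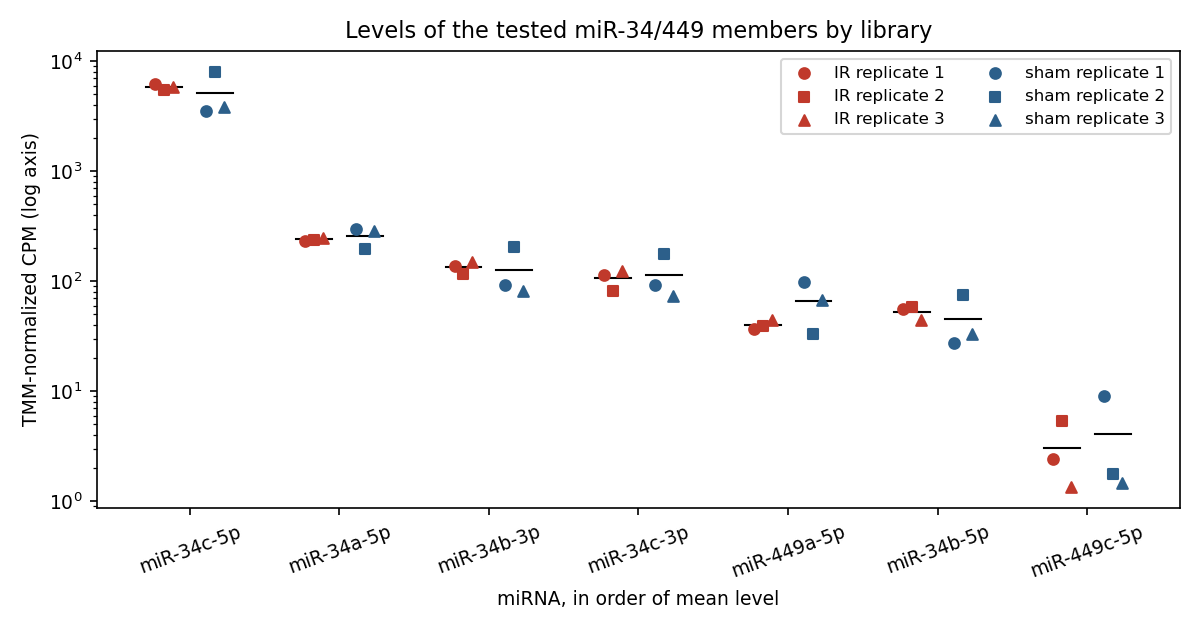
Normalized CPM (log axis) of the 7 tested members in the 3 IR libraries (red, left of each pair) and the 3 sham libraries (blue, right), in order of mean level, with a bar at each group mean. The IR replicates lie within 1.52-fold of each other except for miR-449c-5p, and sham replicate 2 (square) is the highest sham library for the miR-34b and miR-34c arms and the lowest for miR-34a-5p and miR-449a-5p.

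The dominant member was rno-miR-34c-5p, a mature miRNA of the ciliated locus on chromosome 8. rno-miR-34c-5p had 6222, 5503 and 5869 normalized CPM in IR models, against 3568, 8079 and 3867 normalized CPM in sham models. The IR libraries therefore lay close together and inside the sham range, which was set by sham replicate 2 at the upper end. The mean was 5865 ± 360 normalized CPM in IR models and 5172 ± 2523 normalized CPM in sham models (SD, n = 3 each). By edgeR's quasi-likelihood test the log2 fold change was 0.18 (SE 0.30, adjusted p = 0.714). At its mean level it ranked 30th among the 693 listed names.

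rno-miR-34a-5p, taken here as the p53-linked member, was nearly constant between the IR libraries. rno-miR-34a-5p had 234.4, 238.9 and 247.4 normalized CPM in IR models, against 299.1, 196.8 and 285.4 normalized CPM in sham models. The 3 IR libraries lay between sham replicate 2, the lowest, and the other two sham libraries. The mean was 240.2 ± 6.6 in IR models and 260.5 ± 55.5 in sham models (SD, n = 3 each), which is a coefficient of variation of 2.75% in IR models and 21.3% in sham models. The log2 fold change was -0.12 (SE 0.19, adjusted p = 0.707 by edgeR's quasi-likelihood test).

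The other arm of the miR-34c hairpin, miR-34c-3p, was far less abundant. It had 115.0, 81.0 and 122.8 normalized CPM in IR models, against 92.7, 178.5 and 73.1 normalized CPM in sham models. Sham replicate 2 was again the highest library and the groups overlapped (log2 fold change -0.11, SE 0.34, adjusted p = 0.869 by the same test). Reads of miR-34c-5p exceeded those of miR-34c-3p 54.1, 68.0 and 47.8 times in IR models, against 38.5, 45.3 and 52.9 times in sham models, so that the 5p arm prevailed in every library.

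For miR-34b the order of the arms was the opposite, with more reads from the 3p arm. miR-34b-3p had 136.3, 115.7 and 149.7 normalized CPM in IR models, against 92.0, 206.5 and 82.0 normalized CPM in sham models (log2 fold change 0.08, SE 0.35, adjusted p = 0.915). rno-miR-34b-5p had 55.4, 58.7 and 44.1 normalized CPM in IR models, against 27.2, 75.7 and 32.9 normalized CPM in sham models (log2 fold change 0.21, SE 0.38, adjusted p = 0.738, both by edgeR's quasi-likelihood test). In both arms sham replicate 2 was the highest library and sham replicates 1 and 3 were the lowest. The ratio of 3p to 5p reads was 2.46, 1.97 and 3.40 in IR models and 3.38, 2.73 and 2.49 in sham models, above 1 in all 6 libraries.

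rno-miR-449a-5p, from the locus beside Ccno and Mcidas, had the largest log2 fold change in size among the tested members. rno-miR-449a-5p had 36.8, 39.3 and 44.6 normalized CPM in IR models, against 98.3, 33.1 and 68.1 normalized CPM in sham models. The IR libraries lay below sham replicates 1 and 3 and above sham replicate 2. The mean was 40.2 ± 4.0 in IR models and 66.5 ± 32.6 in sham models (SD, n = 3 each). The log2 fold change was -0.72 (SE 0.36), with an unadjusted p of 0.0800 and an adjusted p of 0.248 by edgeR's quasi-likelihood test.

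The remaining members were rare. miR-449c-5p had 16, 19 and 16 reads in IR models, against 72, 20 and 13 reads in sham models, and its highest library was sham replicate 1 (log2 fold change -0.54, SE 0.80, adjusted p = 0.692 by edgeR's quasi-likelihood test). Without sham replicate 1 the log2 fold change was 0.77. miR-34a-3p had 4, 0 and 3 reads in IR models, against 5, 13 and 4 reads in sham models. Its 7 reads in IR models and 22 in sham models gave a depth-adjusted ratio of 0.425 with a 95% exact interval of 0.153 to 1.03, which covers counting error only. miR-449a-3p had 1, 0 and 4 reads in IR models, against 1, 1 and 0 reads in sham models, a ratio of 3.34 with an interval of 0.547 to 35.1. A count of 0 allows up to 3 reads in a library, and for neither arm was a difference between the groups detectable at this depth.

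By mean normalized CPM over the 6 libraries the order of levels was miR-34c-5p, miR-34a-5p, miR-34b-3p, miR-34c-3p, miR-449a-5p, miR-34b-5p, miR-449c-5p, miR-34a-3p and miR-449a-3p. These are reads per library with no correction for length, and the mature members are 21 to 23 nt long. miR-34c-5p was above miR-34a-5p in 6 of 6 libraries with no overlap of their ranges. miR-34a-5p and miR-34b-3p, miR-34b-3p and miR-34c-3p, and miR-34c-3p and miR-449a-5p were in this order in 5 of 6 libraries each, with ranges that overlapped. miR-449a-5p and miR-34b-5p were not separated, since miR-449a-5p was the higher in 3 of 6 libraries. miR-449c-5p was below miR-34b-5p and above miR-34a-3p in 6 of 6 libraries.

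Nearly the whole of the seed family was therefore miR-34c-5p. Together the 5 members with the shared seed took 0.689, 0.543 and 0.655% of the listed reads in IR models, against 0.426, 0.882 and 0.369% in sham models, a mean of 0.629 ± 0.076% and 0.559 ± 0.282% (SD, n = 3 each). Of these reads miR-34c-5p held 94.98, 94.1 and 94.6% in IR models, against 89.2, 96.3 and 90.9% in sham models. miR-34a-5p held 3.58, 4.09 and 3.99% in IR models, against 7.47, 2.35 and 6.71% in sham models. The share of miR-34a-5p was thus highest in sham replicates 1 and 3 and lowest in sham replicate 2, and the IR libraries lay between them.

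Between the sham libraries the 4 arms from chromosome 8 varied together, while miR-34a-5p and miR-449a-5p varied in the other direction. Between the IR libraries the 4 arms did not, since miR-34b-5p was highest in IR replicate 2 and the other arms were lowest there. In sham replicate 2 the level relative to the mean of sham replicates 1 and 3 was 2.17 for miR-34c-5p, 2.15 for miR-34c-3p, 2.52 for miR-34b-5p and 2.37 for miR-34b-3p. The same ratio was 0.673 for miR-34a-5p, 0.398 for miR-449a-5p and 0.337 for miR-449c-5p. Over the 416 tested miRNAs for which it was computed, its median was 0.932 and its 90th percentile 1.49. All 4 arms of the chromosome 8 locus were above that percentile. By the highest over the lowest sham library, however, they were at 2.26 to 2.78, below the 90th percentile of 2.95 (median 1.44). In that measure miR-34a-5p was at 1.52, miR-449a-5p at 2.97 and miR-449c-5p at 6.23. The value of miR-449c-5p also reflects its high count in sham replicate 1, which was 5.62 times the mean of the other two sham libraries.

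**Figure D2:**
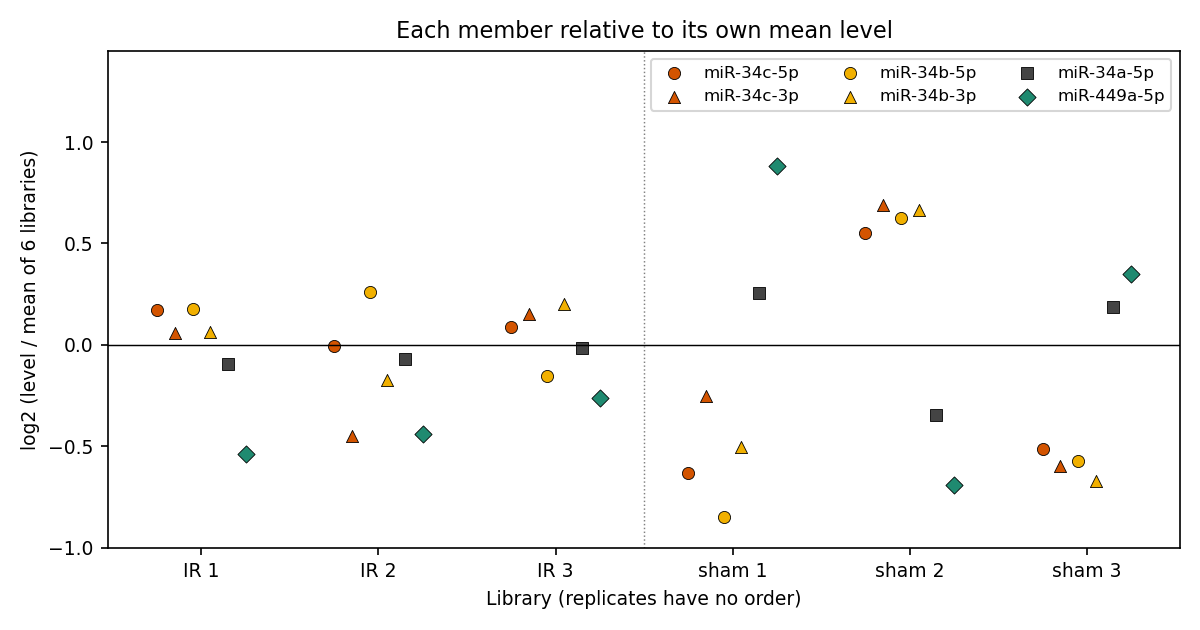
Level of 6 tested members in each library as log2 of the level over the mean of the 6 libraries, with IR libraries left of the dotted line and sham libraries right of it. In sham replicate 2 the 4 arms of miR-34b and miR-34c are at 0.55 to 0.69 and miR-34a-5p and miR-449a-5p at -0.35 and -0.69, and in sham replicates 1 and 3 both groups of members are on the opposite side of 0.

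Over the 6 libraries the log2 level of miR-34c-5p had a Pearson r of 0.956 with miR-34b-3p, 0.950 with miR-34b-5p and 0.817 with miR-34c-3p, and the lowest r between any 2 of the 4 arms was 0.640, for miR-34b-5p with miR-34c-3p. With miR-34a-5p it was -0.983 and with miR-449a-5p -0.941, while miR-34a-5p and miR-449a-5p had an r of 0.923 with each other. Of the 4 arms miR-34c-3p was the least opposed to them, with an r of -0.789 with miR-34a-5p and -0.581 with miR-449a-5p. miR-449a-5p and miR-449c-5p, which are neighbours on chromosome 2, had an r of 0.498. These values describe 6 points that share library, scaling and depth, and the sham libraries were spread more widely than the IR libraries in each of these members. The members known from multiciliated cells thus did not behave as 1 set in these libraries, because the miR-34b and miR-34c arms and miR-449a-5p differed in which sham libraries were high.

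Ratios within a library do not depend on the scaling. Reads of miR-34c-5p over those of miR-34b-5p were 112, 93.7 and 133 in IR models, against 131, 107 and 117 in sham models, so the highest ratio was 1.42 times the lowest. The 2 sequences differ at 2 bases, and the part of shared reads in this stable ratio was not tested. The 3p arms, which differ at 5 bases, had a ratio of similar spread, the highest being 1.44 times the lowest. For miR-34b-3p over miR-34c-3p it was 1.19, 1.43 and 1.22 in IR models, against 0.992, 1.16 and 1.12 in sham models. Every IR library was thus above every sham library in the ratio of the 3p arms, which was not tested between the groups. No member met the rule for shared reads, under which 2 names have nearly equal counts in every library. That rule could not find a small part of the miR-34c-5p reads counted as miR-34b-5p, since the 2 counts are far apart.

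In contrast, miR-34c-5p over miR-34a-5p was 26.5, 23.0 and 23.7 in IR models, against 11.9, 41.0 and 13.6 in sham models. miR-34c-5p over miR-449a-5p was 169, 140 and 132 in IR models, against 36.3, 244 and 56.8 in sham models. In both ratios the 3 IR libraries lay between sham replicate 2 and the other two sham libraries.

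**Figure D3:**
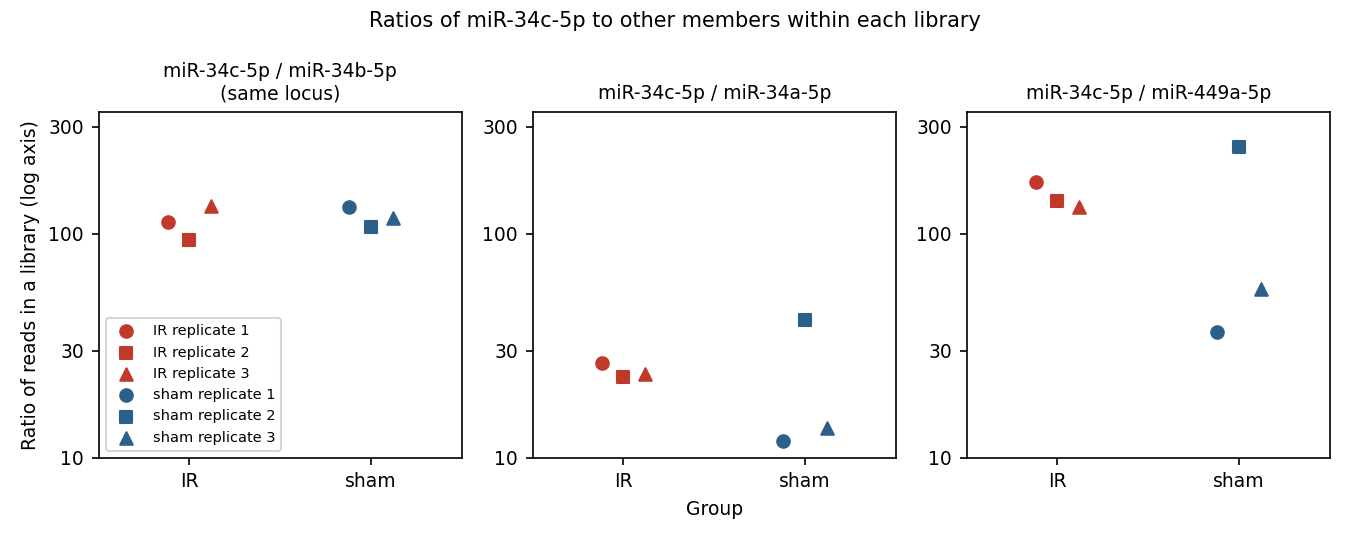
Ratio of miR-34c-5p reads to those of miR-34b-5p, miR-34a-5p and miR-449a-5p in each library (log axis), with IR left and sham right in each panel. The ratio to miR-34b-5p stays between 93.7 and 133, whereas the ratio to miR-34a-5p spans 11.9 to 41.0 and that to miR-449a-5p 36.3 to 244, with both extremes in sham libraries.

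The log2 ratio of miR-34a-5p to each of the other 5p members was compared between the groups. Such a ratio cannot tell a p53 response from a change in ciliated cells. The log2 ratio to miR-34c-5p was -4.61 ± 0.11 in IR models and -4.23 ± 0.98 in sham models, a difference of -0.38 (exact two-sided permutation test, p = 0.5). To miR-34b-5p it was 2.20 ± 0.25 in IR models and 2.65 ± 1.11 in sham models, a difference of -0.45 (exact two-sided permutation test, p = 0.6). To miR-449a-5p it was 2.58 ± 0.10 in IR models and 2.08 ± 0.48 in sham models, a difference of 0.50 (exact two-sided permutation test, p = 0.2). To miR-449c-5p it was 6.49 ± 1.03 in IR models and 6.45 ± 1.29 in sham models, a difference of 0.04 (exact two-sided permutation test, p = 1). The SDs are over 3 libraries a group. Adjusted over the 4 ratios by Benjamini-Hochberg, the exact permutation p-values were 0.8, 0.8, 0.8 and 1. With 3 libraries a group such a test cannot give a p below 0.1.

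Whether a member was called turned on sham replicate 2, and with any other library left out 0 members were called. Sham replicate 2 was the extreme sham library for the members called without it. Leaving it out thus shifts their sham mean and narrows the sham spread, so the p-values of that fit are a description only. Without sham replicate 2, miR-34c-5p was higher in IR models by a log2 fold change of 0.68 (SE 0.13, adjusted p = 0.0271). Its mean was 5865 normalized CPM in IR models and 3718 in the 2 remaining sham libraries. miR-449a-5p was lower, with a log2 fold change of -1.03 (SE 0.24, adjusted p = 0.0433) and means of 40.2 normalized CPM in IR models and 83.2 in the remaining sham libraries. Both p-values are from edgeR's quasi-likelihood test. In this fit 2 of the 7 members were called, as compared to 57 of 420 miRNAs (13.6%). The 2 called members, both known from multiciliated cells, moved in opposite directions.

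The other arms of the chromosome 8 locus did not pass the threshold without sham replicate 2. The log2 fold change was 0.84 for miR-34b-5p (adjusted p = 0.0527), 0.64 for miR-34b-3p (adjusted p = 0.0792) and 0.38 for miR-34c-3p (adjusted p = 0.365, all by edgeR's quasi-likelihood test). For miR-34a-5p it was -0.26 (adjusted p = 0.268), with a mean of 240.2 normalized CPM in IR models and 292.3 in the remaining sham libraries. All IR libraries lay on one side of both remaining sham libraries for 5 of the 7 members, above them for miR-34c-5p, miR-34b-5p and miR-34b-3p and below them for miR-34a-5p and miR-449a-5p. The share over all miRNAs in that fit was 204 of 420 (48.6%). Without sham replicate 1, in contrast, the log2 fold change was -0.061 for miR-34c-5p, -0.083 for miR-34b-5p and -0.15 for miR-34b-3p. Without sham replicate 3 it was 0.0037 for miR-34c-5p, 0.023 for miR-34b-5p and -0.16 for miR-34b-3p.

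**Figure D4:**
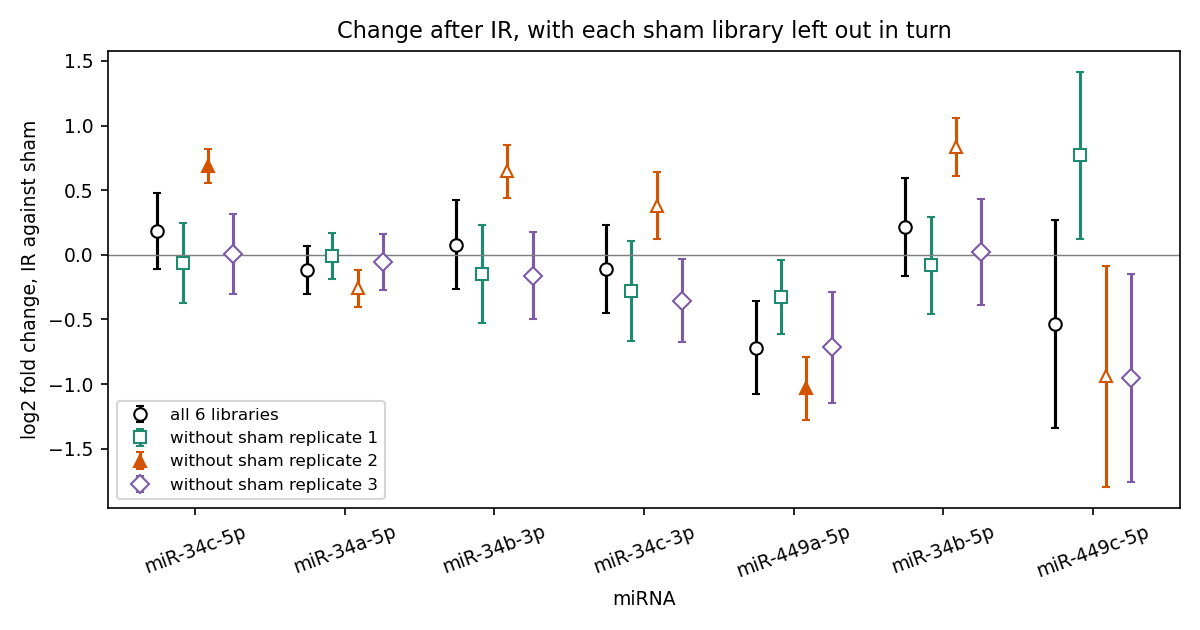
Log2 fold change of IR against sham for the 7 tested members with all 6 libraries (black circles) and with each sham library left out, with bars of 1 standard error and filled symbols for an adjusted p under 0.05. Filled symbols appear for miR-34c-5p at 0.68 and miR-449a-5p at -1.03, both without sham replicate 2, the extreme sham library for each of them.

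The sham libraries were compared in markers of other lung cell types, to see what else differed in sham replicate 2. The summed normalized CPM of the epithelial miR-200 family (5 of 5 members measured) was 18670 to 19220 in IR models, against 12890 to 15880 in sham models, and was 1.13 times as high in sham replicate 2 as in the mean of the other two. The airway basal cell marker miR-205 was at 61.4 to 83.2 normalized CPM in IR models, against 51.1 to 61.4 in sham models. Over all cell types examined, that sham replicate 2 ratio of the summed level lay between 0.759 (erythroid cells) and 1.13. The ratio does not show differences between sham replicates 1 and 3. For the erythroid markers the sum was 1197, 1938 and 3906 normalized CPM in sham replicates 1, 2 and 3. No marker was at 0 in any library. The part of cell composition in the spread of the family was not tested.

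None of the epithelial miRNAs passed the test. The median log2 fold change of the 5 was 0.28, as compared to -0.0088 over all miRNAs tested. It was 0.34 for miR-200a-3p, the most abundant, 0.55 for miR-200b-3p, 0.28 for miR-200c-3p, 0.12 for miR-429 and 0.005 for miR-141-3p. The largest change was thus that of miR-200b-3p, with 5835 ± 336 normalized CPM in IR models and 3992 ± 700 in sham models (SD, n = 3 each, adjusted p = 0.0647 by edgeR's quasi-likelihood test). The neuroendocrine markers miR-375-3p and miR-7a-5p, the endothelial arms of miR-126a, the smooth muscle markers miR-143-3p and miR-145-5p and the erythroid markers miR-451-5p, miR-486 and miR-144-3p did not pass either. Of the 4 leukocyte markers 1 was lower, miR-150-5p of lymphocytes (log2 fold change -0.77, adjusted p = 0.0229 by the same test). Over all miRNAs tested 2.63% were lower. miR-142-5p, miR-142-3p and miR-223-3p did not pass, at log2 fold changes of -0.61, -0.67 and -0.785. Of the 4 striated muscle markers 1 was higher, miR-1-3p (log2 fold change 1.31, adjusted p = 0.0138 by the same test), as compared to 7.89% over all miRNAs tested. miR-1-3p shares its reads with miR-3571 by the rule for shared reads. miR-133a-3p, miR-133b-3p and miR-206-3p did not pass, at log2 fold changes of -0.008, 0.05 and -0.47. The summed leukocyte markers were at 2169 to 2479 normalized CPM in IR models, against 3055 to 4266 in sham models.

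A list of miRNAs outside the family whose transcription or maturation p53 is known to promote was also examined. Of its 9 names, 8 were in the table and tested, and 2 were higher in IR models, 0 were lower and 6 did not pass, as compared to 7.89% higher and 2.63% lower over all miRNAs tested. The median log2 fold change of the 8 was 0.02, as compared to -0.0088 over all miRNAs tested. miR-192-5p had 991.6 ± 142 normalized CPM in IR models and 487.9 ± 161 in sham models (log2 fold change 1.02, adjusted p = 0.0354). miR-194-5p, a gene copy of which is transcribed together with miR-192, had 265.7 ± 77.5 normalized CPM in IR models and 132.9 ± 20.9 in sham models (log2 fold change 1.00, adjusted p = 0.0317, both by edgeR's quasi-likelihood test and with SDs over n = 3 each). Both are also abundant in gut and liver. The most abundant members, miR-143-3p, miR-22-3p and miR-145-5p, had log2 fold changes of -0.01, -0.08 and 0.04, and miR-34a-5p itself was at -0.12.

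The miRNAs outside the family with the most similar pattern over the 6 libraries were sought by the Pearson r of the log2 levels among 411 miRNAs. Closest to miR-34c-5p were miR-6216 (r = 0.948), miR-3556a (0.918) and a predicted miRNA without a name (0.916). Of these only miR-3556a was abundant, with 411, 322 and 504 normalized CPM in IR models, against 162, 453 and 184 in sham models, and here too sham replicate 2 was the highest sham library. miR-6216 was also closest to miR-34b-5p (0.940), followed by miR-212-5p (0.864) and miR-592 (0.861), each with levels of at most 3.01 normalized CPM.

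Closest to miR-34a-5p were miR-28-3p (0.903), let-7b-5p (0.886) and miR-181c-5p (0.876). let-7b-5p (0.984) and miR-181c-5p (0.962) were also closest to miR-449a-5p, followed by miR-16-5p (0.924). let-7b-5p had 2860, 2960 and 2910 normalized CPM in IR models, against 3460, 2850 and 3240 in sham models, so it shared the low value in sham replicate 2 at a much smaller range. For miR-449c-5p the closest were miR-490-3p (0.925), miR-7a-1-3p (0.923) and miR-3068-3p (0.919). An r of 0.8 or more was reached by 10 to 20 of the 411 miRNAs for each of the 5 members, and with 6 libraries these values are a description only.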

How the data were processed

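Total RNA of rat lung was made into small RNA libraries with the NEBNext kit, and the authors deposited 1 table of whole-number counts for each miRNA and library, with a TPM value beside each count. Bowtie is named in the submitters' processing notes. The genome build, annotation and mismatch rule are not stated in the sources used here. TPM as deposited equal the counts per 1000000 listed reads, with no length term. Members and lists were chosen with earlier results of these data known. Groups came from the sample labels, where control is the sham surgery.

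Counts were tested in R 4.3.3 with edgeR 4.0.16 (filterByExpr, minimum count 10 and total 15, TMM factors 0.867 to 1.06, quasi-likelihood test, Benjamini-Hochberg adjusted p under 0.05 over all miRNAs tested), checked on simulated counts. DESeq2 1.42.0, limma 3.58.1, other scalings, filters, a replicate block and leaving out each library were the alternatives. Reads below the filter were compared as sums with exact intervals. Log2 ratios used counts plus 0.5, and correlations used log2(normalized CPM + 1). 2 names were taken to share reads where, with a mean of 5 reads or more, the difference in their counts never exceeded 5% or 2 reads. Every member was named, with the 3 most similar miRNAs for each 5p member, and from each list up to 3 by highest level and those past the threshold. Figures were drawn with Python 3.11.15 and matplotlib 3.10.9.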

Additional observations from a re-analysis of the deposited data

How the results depend on the processing

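Each result was recomputed under each alternative. Of these values 162 kept their direction and call (for counts, stayed within 1.5 times), 12 changed direction, 2 became called and 8 counts moved further. The count of 44 called miRNAs was 26 with at least 10 reads in every library, 69 with DESeq2 and 0 with the replicate block, and 2 to 57 with 1 library left out (2 without IR replicate 3, 17 without IR replicate 2, 24 without IR replicate 1, 21 without sham replicate 3). Of the family 0 members were called, and 0 to 2 with 1 library left out. With 1 library left out the log2 fold change ran from -0.061 to 0.68 for miR-34c-5p, -0.083 to 0.84 for miR-34b-5p, -0.16 to 0.64 for miR-34b-3p, -0.36 to 0.38 for miR-34c-3p, -0.26 to -0.0091 for miR-34a-5p, -1.03 to -0.32 for miR-449a-5p and -1.15 to 0.77 for miR-449c-5p. Limma-trend turned miR-34c-3p to 0.00069. The difference in the log2 ratio of miR-34a-5p to miR-449c-5p was -0.032 with a pseudocount of 5 reads and -0.67 to 0.59 with 1 library left out. The cause was not tested. Same-numbered libraries had correlations of -0.234, -0.387 and -0.183 in their deviations from the group means, and differently numbered libraries -0.102 to 0.308. Deviations from a mean of 3 libraries sum to 0, so these values cannot show whether the samples were paired. The sample labels give no pairing. The block gave log2 fold changes of 0.29 for miR-34c-5p and -0.60 for miR-449a-5p. Leaving out miR-21-5p was chosen after seeing the data and called 44 miRNAs. The 3 libraries a group limit the precision of every member, and low read counts limit that of miR-449c-5p.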
